A study of Mus musculus with 20 samples.

Results

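The comparison described here set cultures of dissociated mouse hippocampal neurons given 100 nM NVP-AAM077 (NVP) against cultures given vehicle (control). It took 10 of the 20 arrays of the series, the 5 titled as NVP replicates and the 5 titled as control replicates, chosen by their titles alone. All cultures were on day 21 in vitro when treatment began and were treated for 24 h, and no genotype, strain or animal age is given in the sources used here. The other groups of the series, used below only where they show how NVP differed, were 5 arrays of cultures given 100 µM AP5 and 5 of cultures given 1 µM of a compound that the labels call Ro25-4891 (Ro25). Each array carried 2 RNAs, the culture's own in Cy5 and a universal mouse reference in Cy3, so every level below is a log2 ratio of Cy5 to Cy3, and every difference is between such ratios. Whether the replicates are independent cultures or animals is not in the labels. The p-values therefore describe the spread among these samples, and that spread may be technical.

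NMDA receptors are glutamate-gated channels built from GluN1 and GluN2 subunits that pass calcium into the neuron when synapses are active. The calcium drives signalling to the nucleus through CaM kinases, ERK and the transcription factor CREB. This raises first the immediate early genes, many of which encode transcription factors, and then a later set of secreted, synaptic and signalling proteins. AP5 is the classic competitive antagonist of all NMDA receptors, while NVP-AAM077 is a competitive antagonist with a preference, not an absolute one, for receptors holding GluN2A, the subunit encoded by Grin2a. Ptgs2, which appears in the series title, encodes the inducible cyclooxygenase that makes prostaglandin H, and the title ties its NMDA receptor-dependent induction to astrocyte division. The comparison therefore asks how much of the activity-dependent expression of Ptgs2 and other genes is sensitive to 100 nM NVP.

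The promoters of 4 such genes are shown first. Nr4a1, Npas4 and Fosb had the largest differences among the immediate early genes, and Ptgs2 is the gene of the title. A link between these sequences and the values below was not tested. Each sequence is the 250 bases before the transcript start in RefSeq (assembly GRCm38.p6), 5′ to 3′ on the gene's strand, with the CREB core motif TGACG, read on both strands and so also as CGTCA, in capitals. Nr4a1 lies at chr15:101266596-101266845 (plus strand), Npas4 at chr19:4989972-4990221 (minus strand), Fosb at chr7:19310046-19310295 (minus strand) and Ptgs2 at chr1:150099781-150100030 (plus strand).
Nr4a1: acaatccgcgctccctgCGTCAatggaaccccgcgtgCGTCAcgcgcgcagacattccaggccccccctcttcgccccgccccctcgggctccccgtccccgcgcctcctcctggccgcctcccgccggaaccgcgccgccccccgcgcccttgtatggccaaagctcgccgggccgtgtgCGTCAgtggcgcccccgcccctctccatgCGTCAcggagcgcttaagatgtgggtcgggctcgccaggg
Npas4: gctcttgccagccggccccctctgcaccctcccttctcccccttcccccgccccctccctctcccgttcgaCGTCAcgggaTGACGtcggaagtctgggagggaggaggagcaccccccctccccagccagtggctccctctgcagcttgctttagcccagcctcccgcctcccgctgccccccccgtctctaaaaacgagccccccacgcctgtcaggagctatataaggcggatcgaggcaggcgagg
Fosb: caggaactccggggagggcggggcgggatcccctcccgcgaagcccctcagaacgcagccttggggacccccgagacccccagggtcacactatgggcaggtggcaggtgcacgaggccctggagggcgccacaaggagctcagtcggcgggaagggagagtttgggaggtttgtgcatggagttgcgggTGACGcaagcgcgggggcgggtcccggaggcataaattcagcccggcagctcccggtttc
Ptgs2: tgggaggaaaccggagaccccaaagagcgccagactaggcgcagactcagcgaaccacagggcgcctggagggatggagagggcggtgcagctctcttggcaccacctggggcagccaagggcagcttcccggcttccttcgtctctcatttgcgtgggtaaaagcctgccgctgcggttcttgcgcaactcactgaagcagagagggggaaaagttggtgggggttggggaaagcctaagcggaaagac
The core motif occurred 4 times in the Nr4a1 window, 2 times in that of Npas4, 1 time in that of Fosb and 0 times in that of Ptgs2. Among 32851 promoter windows of the same length, 17.8% held at least 1 core motif. The full palindrome TGACGTCA, which contains the core motif, occurred in 0 of the 4 windows and in 1.55% of all windows. These matches describe the letters of these windows only. Each window was read from 1 annotated start per gene, and motifs outside it were not counted. The 0 for Ptgs2 therefore does not show that its promoter lacks the motif.

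The 10 arrays were alike in the share of probes above background, but 1 differed in the balance of Cy5 to Cy3. Before loess normalization, the median log2 ratio was 0.066 on control replicate 5 and 0.25 to 0.38 on the others. The red channel, which carries the culture's RNA, stood well above background for 60.24 to 69.12% of probes, and 0 spots were saturated. All 10 were scanned on the same day, but no slide held both groups. NVP replicates 2, 3 and 4 shared a slide with AP5 replicate 5, NVP replicates 1 and 5 shared a slide with Ro25 replicate 3, control replicate 3 shared a slide with 3 Ro25 arrays, and the other 4 control arrays filled a slide of their own. AP5 replicate 1 shared a slide with Ro25 replicate 2. Slide and treatment can therefore be told apart only through the Ro25 arrays and control replicate 3, in part by way of AP5 replicates 1 and 5. With slide as a random block the correlation of arrays on a slide was -0.04 over all 20 arrays and 0.0639 over the 10.

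Across the transcriptome, NVP left the cultures close to control. None of the 19336 genes tested passed an adjusted p of 0.05 in limma with Benjamini-Hochberg adjustment (0%), and the lowest adjusted p was 0.484. At an unadjusted p under 0.05 there were 1136 genes (5.88%), 479 with a higher mean in NVP and 657 with a lower one, where 5% would be 967. The differences ran from -0.72 to 0.80, with a median of -0.01 and a median SE of 0.0961. Of all genes, 26 differed by more than 1.5-fold and 0 by more than 2-fold. The 95% interval of the difference lay wholly within 2-fold for 19205 genes (99.32%) and within 1.5-fold for 18039 (93.29%). Changes above those sizes were thus not seen for them rather than shown to be absent for all. These intervals come from the fit without slide. With slide as a fixed block the median SE was 0.219, and such intervals were not counted there. In 117 genes every NVP array lay above every control array (0.605%), and in 238 every NVP array lay below (1.23%). By the same fit, which shares the control arrays, 1184 genes passed for AP5 against control (6.12%) and 3 for Ro25 (0.0155%). In whole cultures, fewer cells of a type and less RNA per cell cannot be told apart.

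**Figure D1:**
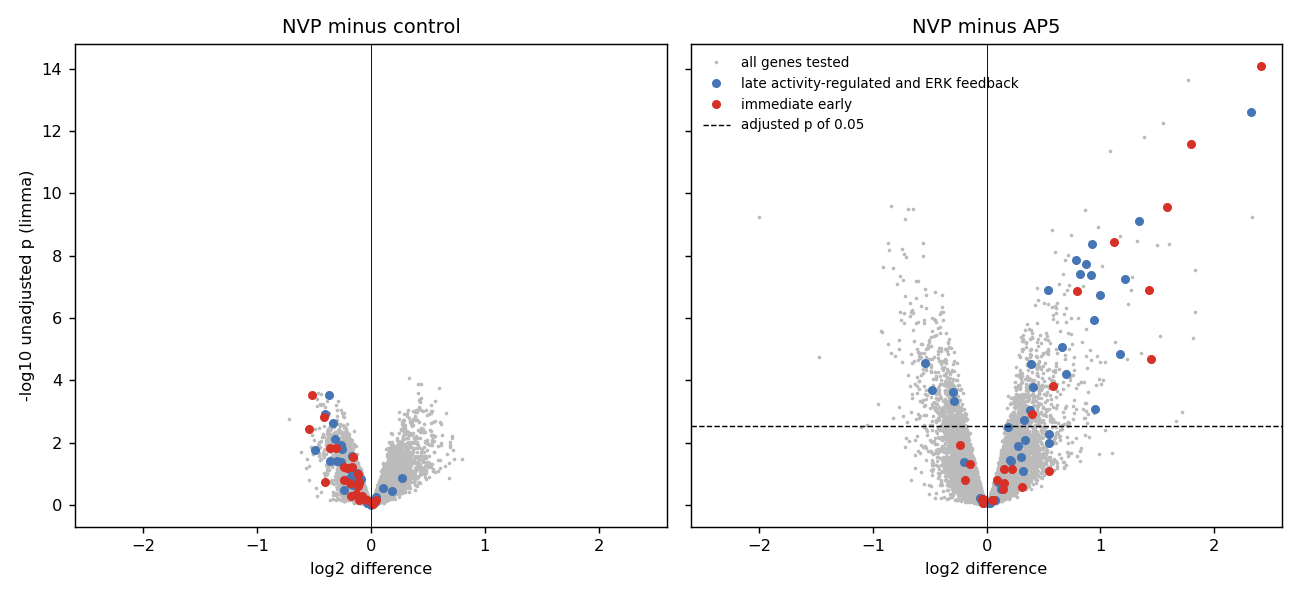
Log2 difference (x) against -log10 of the unadjusted limma p (y) for all 19336 genes, for NVP minus control (left) and NVP minus AP5 (right). The immediate early genes are red, the late activity-regulated and ERK feedback genes are blue, and the dashed line marks an adjusted p of 0.05, which no gene reached on the left and 1118 genes reached on the right.

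Ptgs2 had a lower mean in NVP than in control, by much less than in AP5. Its log2 ratios were -1.36, -1.22, -0.97, -1.17 and -0.73 on the control arrays and -1.61, -1.64, -1.59, -1.34 and -1.28 on the NVP arrays. Control replicate 1 lay below NVP replicates 4 and 5, and the other control arrays lay above all NVP arrays. The difference was -0.40 (SE 0.107, 95% interval -0.63 to -0.18), a 1.32-fold lower mean, with a limma adjusted p of 0.484. Taken as a single value, it gave a two-sided exact permutation p of 0.0238 (n = 5 and 5), which was 0.0357 after Benjamini-Hochberg adjustment over the 3 comparisons of NVP with the other groups. Ptgs2 was tested alone because the series title names it, so the choice may not be independent of these data. The permutation also ignores slide, and no slide held both groups. With slide as a fixed block the NVP minus control difference was -0.60 (SE 0.280, limma adjusted p 0.759). The AP5 arrays read -2.34, -2.53, -2.41, -2.58 and -2.21, all below every NVP array. The NVP mean exceeded the AP5 mean by 0.92 (95% interval 0.70 to 1.14, limma adjusted p 1.8e-05; exact permutation p 0.00794, adjusted 0.0238, where 0.00794 is the smallest that 252 splits allow). On the slide that held both, the 3 NVP arrays exceeded the AP5 array by 0.690. With slide as a fixed block the NVP minus AP5 difference was 0.76 and its adjusted p 0.0826. Ro25 arrays spanned -1.88 to -1.59, and NVP exceeded Ro25 by 0.21 (95% interval -0.02 to 0.43, limma adjusted p 0.862; exact permutation p 0.0476, adjusted 0.0476). Both Ptgs2 probes had a lower mean in NVP than in control.

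**Figure D2:**
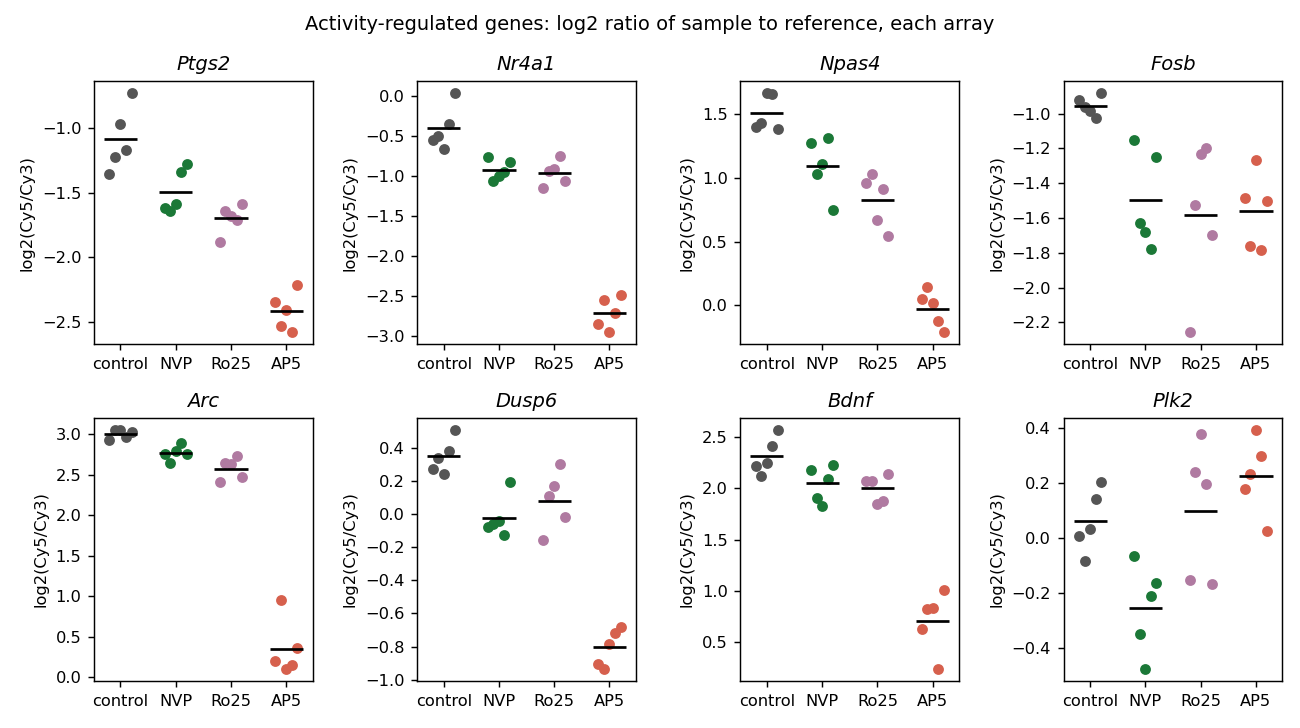
Log2(Cy5/Cy3) of 8 activity-regulated genes on each array, by group (points), with the group mean (bar). For Nr4a1, Npas4, Fosb, Arc and Dusp6 every NVP point lies below every control point, and for Plk2 every NVP point lies below every AP5 point.

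Immediate early genes leaned low in NVP without any passing the test. Of the 24 on the list, all were tested, 21 had a difference below 0 (54.6% of all genes did), and the median was -0.17 against -0.01 over all genes. At an unadjusted p under 0.05, 6 were lower and 0 higher (3.4% and 2.48% of all genes). For 5 of the 24 every NVP array lay below every control array, against 1.23% of all genes: Nr4a1, Npas4, Fosb, Egr2 and Arc. AP5 arrays shared these controls, and 12 of the 24 fell in AP5 against control (3.59% of all genes). Ro25 arrays shared them too, and the median was -0.22 in Ro25, so the lean was not particular to NVP. There 1 of the 24 was lower past the threshold, where 0.0155% of all genes passed in either direction. This list and all lists below, with their members, were chosen with earlier results of these arrays known. Their counts, also those against AP5, are therefore a description.

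Nr4a1 encodes an orphan nuclear receptor induced by synaptic activity. It read -0.54, -0.50, -0.66, -0.34 and 0.04 in control and -0.75, -1.06, -1.002, -0.94 and -0.83 in NVP, with no overlap. The difference was -0.52 (SE 0.118, adjusted p 0.484), or 1.43-fold. The AP5 arrays lay far lower, from -2.96 to -2.49, and NVP exceeded AP5 by 1.80 (adjusted p 8.0e-09). That gap was 1.49 on the shared slide.

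Npas4 encodes an activity-dependent transcription factor that sets inhibitory input onto neurons. Its ratios were 1.40, 1.43, 1.67, 1.66 and 1.38 in control and 1.28, 1.03, 1.11, 1.31 and 0.75 in NVP. Every NVP array was lower, with a difference of -0.41 (SE 0.112, adjusted p 0.511). On all 5 AP5 arrays the probe was not well above background, so the excess of NVP over AP5 is a bound, at least 2.20-fold (adjusted p 3.1e-06). Such a bound sets the brighter group's sample-channel mean against the higher of the probe's own signal and the lowest signal well above background on each dim array, and is open to dye bias because dyes were not swapped. Npas4 was 1 of the 3 genes that passed for Ro25 against control, with a difference of -0.68, and NVP exceeded Ro25 by 0.27 (95% interval 0.04 to 0.50, adjusted p 0.811).

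Fosb, a Fos family partner in the AP-1 transcription factor, had a lower mean than control in all 3 antagonist groups. Control arrays were tightly grouped at -0.92, -0.96, -0.99, -1.03 and -0.88. NVP arrays read -1.15, -1.63, -1.68, -1.78 and -1.25, all lower, with the arrays of 1 slide (replicates 2, 3 and 4) lower than those of the other. The difference was -0.54 (SE 0.164, 95% interval -0.88 to -0.20, adjusted p 0.591). The difference from the same controls was -0.60 in AP5 and -0.63 in Ro25. NVP minus AP5 was 0.06 with a 95% interval of -0.28 to 0.40 (adjusted p 0.916), which bounds the gap and does not show that the antagonists act alike.

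In the fit without slide, Arc and most Egr genes lay nearer to control than to AP5 in NVP. Arc, whose protein governs AMPA receptor removal from synapses, read 2.92, 3.05, 3.04, 2.97 and 3.02 in control and 2.75, 2.64, 2.80, 2.90 and 2.75 in NVP. The groups did not overlap, though the highest NVP array lay just under the lowest control array, and the difference was -0.23 (SE 0.117, 95% interval -0.48 to 0.01, adjusted p 0.872). AP5 arrays ran from 0.10 to 0.95, and NVP exceeded AP5 by 2.41 (95% interval 2.17 to 2.66, adjusted p 1.6e-10), a 5.33-fold gap and the largest of any gene bright enough in both groups. Egr1, a zinc finger transcription factor, overlapped control, from -2.32 to -1.79 in NVP against -2.31 to -1.57, and exceeded AP5 by 1.43 (adjusted p 4.2e-05). Egr3 exceeded AP5 by 1.58 (adjusted p 5.5e-07). Egr4 exceeded it by 1.44 (adjusted p 0.0017) here but not in the scanner's processed signals (-0.24). How close these genes lay to control depended on slide. With slide as a random block, NVP minus control was -0.17 for Egr3 and -0.09 for Egr4. With slide as a fixed block it was -0.75 for Egr3, -1.10 for Egr4, -0.43 for Arc and -0.40 for Egr1, none past the threshold. Egr2 was the exception of the family: NVP arrays from -3.16 to -2.92 lay below control arrays from -2.89 to -2.67, with a difference of -0.31 (adjusted p 0.72), and NVP minus AP5 was 0.22 (95% interval -0.02 to 0.46, adjusted p 0.334). Fos, the founding AP-1 member, had a difference of -0.41 with a wide SE of 0.296 (adjusted p 0.983), and replicate 5 read highest in each group, at -1.25 in control and -1.75 in NVP. In all, 9 of the 24 immediate early genes were higher in NVP than in AP5 past the threshold and 0 were lower, where 3.09% and 2.69% of all genes were. With slide as a fixed block, 6 of the 9 passed.

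Later activity-regulated genes differed little from control in NVP, and many were well above their AP5 levels. Of 28 tested, 22 had a difference from control below 0, the median was -0.12, and 7 were lower at an unadjusted p under 0.05 with 0 higher (3.4% and 2.48% of all genes). None of the 28 separated NVP from control on every array. Bdnf, the neurotrophin that supports synapses and survival, read 2.21, 2.12, 2.25, 2.41 and 2.57 in control and 2.18, 1.91, 1.83, 2.09 and 2.23 in NVP. Only the higher control arrays stood clear of NVP, and the difference was -0.26 (SE 0.122, adjusted p 0.834). It exceeded AP5, at 0.24 to 1.00, by 1.34 (adjusted p 9.6e-07), or 2.54-fold. Nptx2, a secreted pentraxin that clusters AMPA receptors, differed from control by -0.16 and from AP5 by 0.99 (adjusted p 5.3e-05), though by 0.34 in the scanner's processed signals (adjusted p 0.0794). Rgs2, which shortens G protein signalling, differed from control by -0.26 and from AP5 by 0.87 (adjusted p 9.8e-06). Ifi203, an interferon-inducible gene on this list, spanned -0.44 to -0.28 in NVP and -0.45 to -0.19 in control, and exceeded AP5 by 2.32 (adjusted p 1.5e-09). Against AP5, 12 of the 28 were higher and 2 lower past the threshold (3.09% and 2.69% of all genes), of which 7 passed in all with slide as a fixed block.

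Plk2 and Nfil3 were the 2 exceptions that were lower in NVP than in AP5. For Nfil3, NVP minus AP5 was -0.330 on the shared slide and -0.30 with slide as a fixed block (limma adjusted p 0.252). Plk2, a polo-like kinase that weakens overactive synapses, read 0.01, -0.08, 0.03, 0.14 and 0.20 in control, -0.07, -0.35, -0.47, -0.21 and -0.16 in NVP and 0.18, 0.23, 0.39, 0.30 and 0.03 in AP5. NVP replicate 1 reached the lowest control array, and no NVP array reached any AP5 array. NVP differed from control by -0.31 (SE 0.105, adjusted p 0.674), while AP5 differed by 0.17 (adjusted p 0.466). The direct test gave NVP minus AP5 of -0.48 (95% interval -0.70 to -0.26, adjusted p 0.0082), and -0.370 on the shared slide. With slide as a fixed block it was -0.39 (adjusted p 0.226), and on the arrays of 1 scan day -0.44 (adjusted p 0.0645). Pmaip1, the pro-apoptotic BH3 protein Noxa, had the same pattern: a difference from control of -0.24 in NVP (adjusted p 0.728) and 0.48 in AP5 (adjusted p 0.0026), and NVP minus AP5 of -0.72 (adjusted p 5.5e-05).

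**Figure D3:**
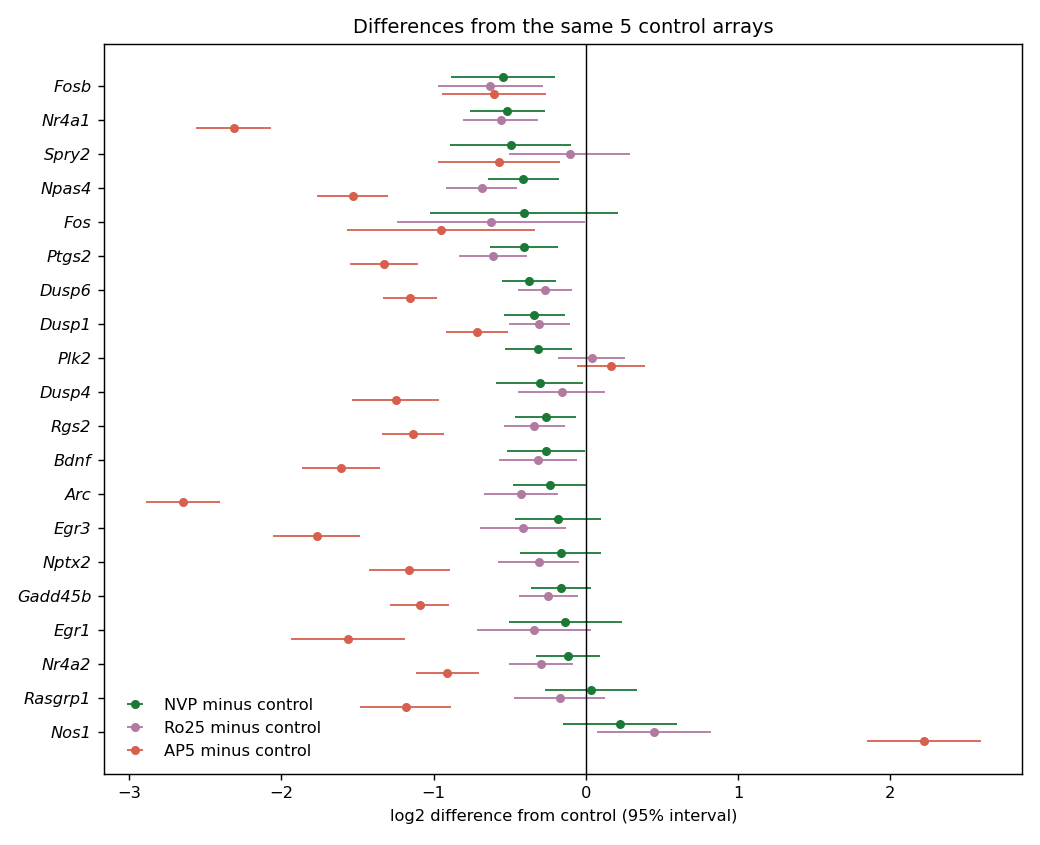
Log2 difference from control (points) with its 95% interval (lines) for 20 activity-related genes in NVP (green), Ro25 (purple) and AP5 (red), all against the same 5 control arrays. NVP points lie between -0.54 and 0.22, while AP5 points reach -2.65 for Arc and 2.22 for Nos1.

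ERK feedback genes encode inhibitors that ERK signalling itself induces. Of 14 tested, 9 had a difference from control below 0, the median was -0.02, and 4 were lower at an unadjusted p under 0.05 with 0 higher (3.4% and 2.48% of all genes). Dusp6, the phosphatase of ERK in the cytoplasm, read 0.28, 0.34, 0.24, 0.38 and 0.51 in control and -0.08, -0.06, -0.04, -0.13 and 0.19 in NVP. NVP replicate 5 stood above the other NVP arrays and just below the lowest control array, so the groups did not overlap. The difference was -0.37 (SE 0.0849, adjusted p 0.484), or 1.29-fold. Dusp6 exceeded AP5, at -0.94 to -0.68, by 0.78 (adjusted p 7.6e-06). Dusp1, the nuclear counterpart, differed from control by -0.34 and exceeded AP5 by 0.38 (adjusted p 0.023, but 0.075 without NVP replicate 1 and 0.0532 without NVP replicate 4). Spry2, a Sprouty inhibitor of receptor signalling, read 2.82, 2.68, 2.77, 2.71 and 3.46 in NVP against 3.32, 3.46, 2.92, 3.39 and 3.80 in control. NVP replicate 5 alone overlapped most of the controls, and the difference was -0.49 (SE 0.191, adjusted p 0.726), with NVP minus AP5 at 0.08 (adjusted p 0.91). Against AP5, 7 of the 14 were higher and 2 lower past the threshold (3.09% and 2.69% of all genes), of which 1 passed with slide as a fixed block.

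NMDA receptor subunit transcripts did not differ beyond their spread. All 7 had a difference above 0 (45.4% of all genes did), with a median of 0.13, and 0 had an unadjusted p under 0.05. Grin2a, the subunit that NVP prefers, spanned 0.50 to 1.18 in control and 0.82 to 1.17 in NVP, a difference of 0.13 (95% interval -0.14 to 0.41, adjusted p 0.999). Grin1, the obligatory subunit, differed by 0.19, Grin2b by 0.21, Grin2c by 0.01 and Grin2d by 0.28, each with an interval that held 0. GABA-A receptor subunits (11 of 12 above 0, median 0.12), voltage-gated channels (18 of 24, median 0.15), postsynaptic scaffolds (14 of 17, median 0.09) and other glutamate receptors (10 of 15, median 0.07) leaned the same way. Gabra5, a mainly extrasynaptic GABA-A subunit, had 0.25 (adjusted p 0.837), and none of their members passed. Control replicate 5 read low for these genes: for the GABA-A subunits its mean ratio was 4.05, while the other control arrays ran from 4.36 to 4.49 and the NVP arrays from 4.36 to 4.57. Without control replicate 5 the GABA-A median was 0.035, and without NVP replicate 4 the channel median was 0.070. With slide as a fixed block the NMDA subunit median was -0.40 and the channel median -0.49, so the direction rests on how slide is handled.

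Nos1, neuronal nitric oxide synthase, is bound to the NMDA receptor complex through a scaffold. It overlapped control in NVP, at -0.57 to 0.22 against -0.86 to -0.05, with a difference of 0.22 (95% interval -0.15 to 0.60, adjusted p 0.998). AP5 arrays read 2.05, 1.83, 1.96, 1.74 and 1.497. NVP was lower than AP5 by 3.99-fold, a difference of -2.00 (adjusted p 8.1e-07), and this was -1.66 on the shared slide.

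In the prostaglandin pathway, 0 members passed the threshold. Of 17 tested, Ptgs2 among them, 11 were below 0 (54.6% of all genes were) and the median was -0.09. Ptgs2 and Ptges3, a prostaglandin E synthase that is also the co-chaperone p23, were lower at an unadjusted p under 0.05 (3.4% of all genes were). The Ptges3 difference was -0.17. Ptgs1, the constitutive cyclooxygenase, spanned -5.39 to -4.27 in NVP and -5.16 to -3.89 in control. Cell division genes, the process named in the title beside Ptgs2, had 35 of 42 members below 0 with a median of -0.05, against 54.6% and -0.01 for all genes, but 24 of 42 and a median of -0.021 with slide as a fixed block. Their median was -0.10 without NVP replicate 3 and -0.023 without control replicate 2. Mki67, the proliferation marker, differed by 0.02 (95% interval -0.35 to 0.40, adjusted p 0.999) and overlapped fully. Rrm2, a subunit of ribonucleotide reductase, was the 1 member at an unadjusted p under 0.05 and the 1 whose arrays did not overlap, with -2.42 to -2.09 in NVP against -2.05 to -1.78 and a difference of -0.41 (adjusted p 0.642). Against AP5, 15 of the 42 were higher in NVP and 0 lower past the threshold (3.09% and 2.69% of all genes), among them Ccna2 (cyclin A2), which drives DNA replication, at 0.54 (adjusted p 0.001). With slide as a fixed block 0 of these 15 passed.

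The remaining pathways gave medians between -0.07 and 0.05. Cholesterol synthesis genes had 18 of 24 below 0 (median -0.07), unfolded protein response genes 13 of 17 (-0.05), interferon-stimulated genes 13 of 19 (-0.04) and FOXO, apoptosis and thioredoxin genes 10 of 17 (-0.01). Oxidative phosphorylation genes had 12 of 23 below 0 (median 0.00), circadian clock genes 9 of 19 (0.00), housekeeping genes 8 of 12 (-0.02) and neuropeptides and secreted modulators 4 of 16 (0.05). The signs of the clock, oxidative phosphorylation, housekeeping and FOXO medians turned under at least 1 other scaling of the arrays. In the FOXO and apoptosis list, 5 members were lower in NVP than in AP5 past the threshold and 1 was higher (2.69% and 3.09% of all genes), and 0 passed with slide as a fixed block. They included Bbc3 (Puma) at -0.75 (adjusted p 2.1e-04) and Apaf1, the core of the apoptosome, at -0.60 (adjusted p 2.3e-04).

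**Figure D4:**
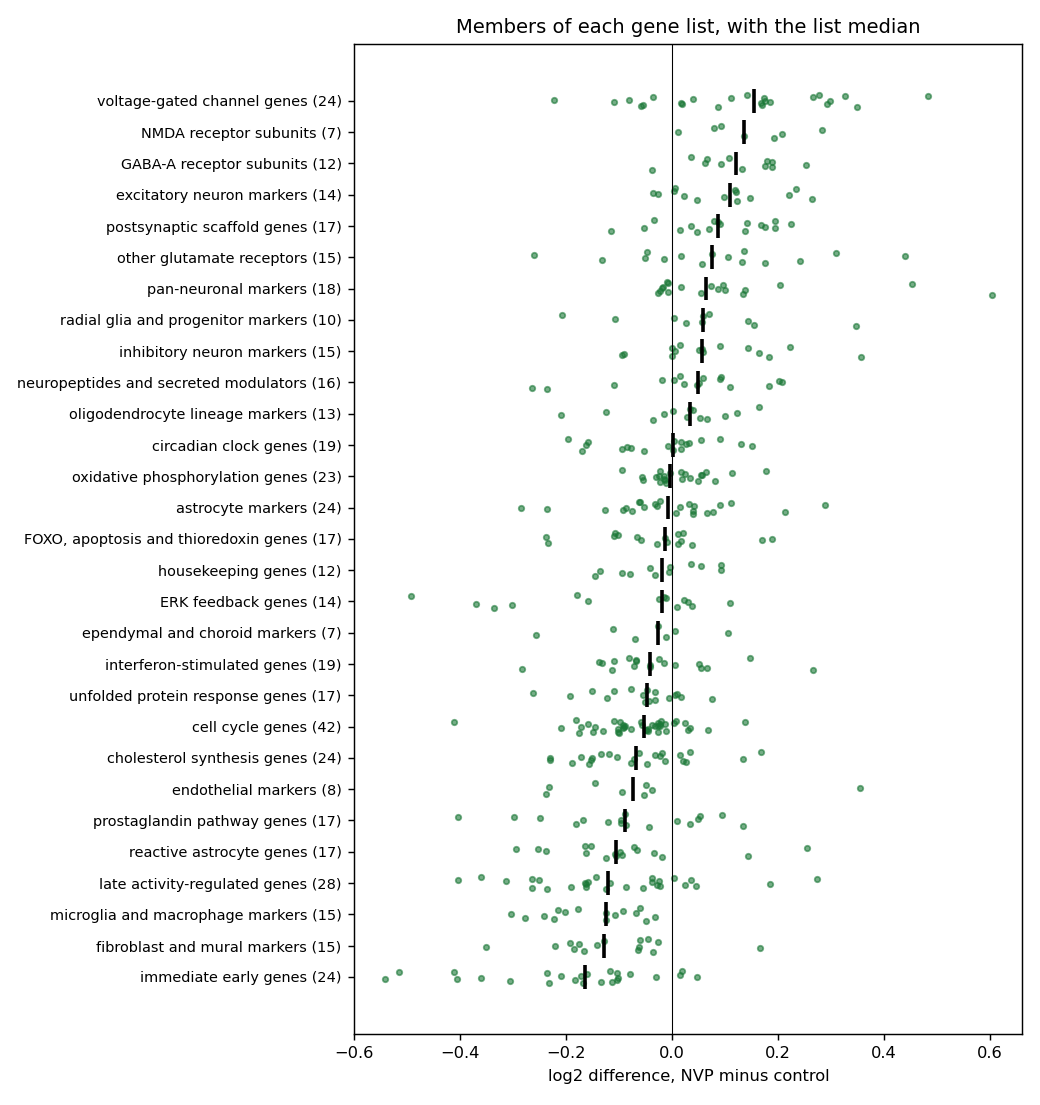
Log2 difference, NVP minus control (x), of every tested member (points) of the 29 gene lists, with the list median (bar) and the number tested in brackets. Medians run from -0.17 for the immediate early genes to 0.15 for the voltage-gated channels.

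Cell type markers bear on the label, which names the tissue as neurons. Neuronal markers were high, with a mean ratio of 4.31 to 4.68 over the control arrays and 4.48 to 4.81 over the NVP arrays, but astrocyte markers were present too, at 3.46 to 3.96 and 3.47 to 4.13, so the cultures held both. Of 24 astrocyte markers, 12 were above and 12 below 0, with a median of -0.01. Gfap, the astrocyte intermediate filament, was the most variable: 3.98 to 5.89 in control and 3.56 to 6.29 in NVP, with a difference of -0.24 and a 95% interval of -1.59 to 1.11. Among 18 neuronal markers 11 were above 0 (median 0.06). Celf4, an RNA-binding protein of neurons, had the largest difference, 0.60 (SE 0.171, adjusted p 0.528), and the synaptic vesicle calcium sensor Syt1 had 0.45 (adjusted p 0.808), and for both control replicate 5 was the lowest array.

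All 15 microglia and macrophage markers tested had a difference below 0 (54.6% of all genes did), with a median of -0.13. The lean was not particular to NVP: against the same controls their median was -0.12 in Ro25 and -0.10 in AP5. The mean ratio of these markers was -2.47, -2.63, -2.71, -2.71 and -2.49 on the control arrays and -2.86, -2.84, -2.71, -2.86 and -2.79 on the NVP arrays. NVP replicate 3 equalled the lowest controls and the other NVP arrays lay below them. At an unadjusted p under 0.05, 3 of the 15 were lower (3.4% of all genes were), and none passed. They were Fcer1g, an Fc receptor chain (-0.30), the lysosomal protein Cd68 (-0.28) and Laptm5 (-0.20). With slide as a fixed block the Cd68 difference was 0.12. Hcls1, a blood-cell cortactin relative that is not on the list, is among the genes of lowest p below. Fibroblast and mural markers leaned the same way, with 14 of 15 below 0, a median of -0.13 and 3 lower at an unadjusted p under 0.05. Reactive astrocyte genes had 15 of 17 below 0 and a median of -0.11. Against the same controls, the fibroblast and mural median was -0.19 in Ro25 and -0.09 in AP5. That of the reactive astrocyte genes was -0.11 in Ro25 and -0.08 in AP5. The counts for NVP rest on how slide is handled. Under the fixed slide block 9 of the 15 microglia markers were below 0 (median -0.16), 11 of the 15 fibroblast and mural markers (median -0.18) and 8 of the 17 reactive astrocyte genes, whose median turned to 0.13. The reactive astrocyte median was -0.19 without NVP replicate 5 and -0.017 without control replicate 5, and the fibroblast and mural median ran from -0.17 to -0.069 with 1 array left out. Endothelial markers had 7 of 8 below 0 (median -0.07), ependymal and choroid markers 5 of 7 (-0.03), oligodendrocyte markers 4 of 13 (median 0.03), excitatory neuron markers 2 of 14 (0.11), inhibitory neuron markers 3 of 15 (0.06) and progenitor markers 2 of 10 (0.06). Their part in the values of the activity-regulated genes was not tested.

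**Figure D5:**
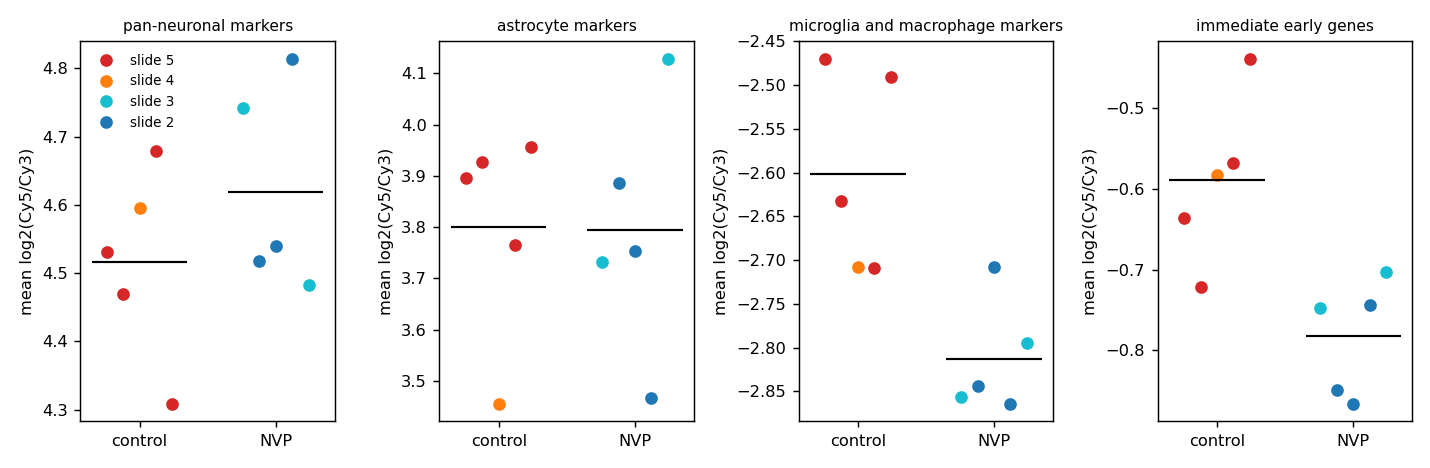
Mean log2(Cy5/Cy3) of 4 gene lists on each control and NVP array (points, coloured by slide) with the group mean (bar). Microglia and macrophage markers span -2.71 to -2.47 in control and -2.86 to -2.71 in NVP, and the immediate early genes span -0.72 to -0.44 and -0.87 to -0.70.

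The genes of lowest p against control, none past the threshold and all with an adjusted p of 0.484, were mostly outside the activity lists. On the higher side, Acp1, a low molecular weight tyrosine phosphatase, came first: -0.21, -0.32, -0.24, -0.23 and -0.34 in control and 0.06, 0.00, 0.19, 0.19 and -0.13 in NVP. The groups did not overlap and the difference was 0.33 (SE 0.0674), but only 1 of its 2 probes had this sign. Hmgb1-rs17, named as a related sequence of the chromatin protein gene Hmgb1, differed by 0.44 with no overlap. The Hmgb1 probe itself had -0.16, and signal from near-identical copies may be mixed in either probe. The probe named NAP103155-1, with no gene assigned, differed by 0.41, also with no overlap. Nectin3, a cell adhesion molecule of puncta adherentia, ran from 2.47 to 2.80 in NVP against 2.00 to 2.45 in control, with 3 of 3 probes of the same sign and a difference of 0.44. Ankrd26 (0.57, 5 of 5 probes), Ift74, of the ciliary transport machinery (0.43), Htatsf1 (0.60), 9330133O14Rik (0.41), Gm4954 (0.42) and the probe A_51_P169576 (0.43) made up the 10.

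On the lower side were Dusp6 and Nr4a1, described above, and 8 others. Cubn, the receptor cubilin, read 0.49, 0.82, 0.59, 0.72 and 0.76 in control and 0.30, 0.04, 0.26, 0.33 and 0.26 in NVP, all lower, with a difference of -0.44 (SE 0.0996). Cubn fell by 0.44 on the log2 scale in AP5 against the same controls (adjusted p 0.0089). Hcls1 differed by -0.39, Olfml3, a secreted olfactomedin that microglia express, by -0.43, and Sprr1a, induced by nerve injury, by -0.31, each with no overlap between groups. Foxd2os (-0.45), Smyd4 (-0.47), the transcript ENSMUST00000016768 (-0.42) and Nfatc2ip (-0.29, with its 2 probes of opposite sign) completed the 10.

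Set directly against AP5, NVP differed at 1118 genes (5.78%), 598 higher and 520 lower, with doses of 100 nM and 100 µM that do not match. Before loess normalization, AP5 replicate 1 had a median log2 ratio of -0.84, against 0.066 to 0.38 on all other arrays. AP5 replicates 1 and 3 were scanned on other days than the NVP arrays, and the setting of 1 scan day leaves both out. Beside Arc and Ifi203, the largest higher values were those of Capsl, a calcyphosine-like calcium-binding protein (2.33, adjusted p 8.1e-07), Col22a1, a collagen (1.83, adjusted p 1.4e-05), and Thsd4, a thrombospondin-domain protein (1.83, adjusted p 1.4e-04, with its 2 probes of opposite sign against control). Beside Nos1, the largest lower values were those of Ly6g6e (-1.48, adjusted p 0.0015), Npy2r, a neuropeptide Y receptor (-1.05, adjusted p 0.049, and 0.0537 to 0.124 when any one of NVP replicates 1 to 4 or of the control arrays was left out), the unassigned probe NAP033385-1 (-0.96, adjusted p 0.017) and the clone AK137302 (-0.92, adjusted p 4.2e-04). Their own differences from control in NVP ran from -0.11 for Col22a1 to 0.38 for Npy2r. Of the 1118 genes, 106 passed with slide as a fixed block, 116 with median centring in place of loess and 556 on the arrays of 1 scan day. Among the genes named above, Ptgs2, Plk2, Pmaip1, Dusp1, Dusp6, Ccna2, Bbc3, Apaf1, Npy2r and NAP033385-1 passed with neither of the first 2 of these settings, Thsd4 and AK137302 did not pass with the slide block, and Egr1 and Rgs2 did not with median centring. Each kept its direction. Nfil3 did not pass with the slide block either. The balance of the calls also moved with the scaling, with 84 of 121 higher under median centring, 74 of 108 with the slide block and 533 of 1263 in the scanner's processed signals. Against Ro25, 0 genes passed in limma (0%), the lowest adjusted p was 0.742, and 1143 had an unadjusted p under 0.05 (5.91%). In the fit without slide, the 95% interval of NVP minus Ro25 lay within 2-fold for 19221 genes (99.41%).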

How the data were processed

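RNA of mouse hippocampal neuron cultures (Cy5) was hybridised with a universal mouse reference (Cy3) on 20 Agilent 2-colour arrays, 5 in each of 4 groups set by the sample titles, with no dye swap. Per the file headers, the authors deposited scanner intensity values of each spot and its local background, read with Feature Extraction 10.7.3.1; the submitters' processing notes give 11.0. The authors also deposited a value table of 20674 probes, with no record in the sources used here of how it was made. Set against the loess ratios of the 10 NVP and control arrays, its columns had slopes of 0.9911 to 1.027, r of 0.9988 to 0.9996 and medians of 0.0302 to 0.0626, so the deposited values were read as log2 of Cy5 over Cy3.

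From the scanner files, background was corrected with normexp (offset 50) and arrays were normalized by loess in limma 3.58.1 (R 4.3.3). Control spots and outlier spots were left out. Of 41174 probes, 28496 were kept, each above the scanner's background limit in red on at least 5 of the 20 arrays. Probes were named through the RefSeq table of GRCm38.p6, and 8161 kept the name in the files. Each of 19336 genes was read from its brightest probe. All 20 arrays entered one model of group means (lmFit, eBayes, 16 residual degrees of freedom), two-sided, with Benjamini-Hochberg adjustment over all genes tested and a threshold of 0.05. The fit was tested on simulated data. Ptgs2 was also tested alone by a two-sided exact permutation of arrays. The number of arrays limits the precision.

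The groups, gene lists (29 lists, 521 genes, 490 tested) and alternatives were chosen with earlier results of these data known, so a list is described by counts and its median, with no test. The genes to name were, per direction, the 10 of lowest p against control bright on at least 3 arrays in both groups, the 3 of lowest p in each list, a set of activity, receptor and marker genes, and the 5 largest differences in each direction against AP5. This gave 120 genes, of which the text names some. Apaf1, Atf4, Bbc3, Ccna2, Ciart, Cry1, Csf1r, Egr2, Egr3, Egr4, Hmgb1, Kcnq3, Kcnv1, Ptgs1 and Tef lie outside it and were named after their values were seen. Alternatives covered normalization, the deposited value table, filters, probes, the arrays fitted, slide or title number as a block and array weights. They also covered leaving out each NVP or control array in turn, but not each AP5 or Ro25 array.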

Additional observations from a re-analysis of the deposited data

Results flagged for a closer look

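Of 202 groups of 5 arrays examined, over the named genes and the list means in NVP and control, 16 held an array far from the other 4 (gap over range above 0.71), where chance gives about 5%.

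NVP replicate 5 was the array apart in 6 of them. Its log2 ratio was 0.194 for Dusp6 (the other NVP arrays -0.125 to -0.0421), 3.46 for Spry2 (others 2.68 to 2.82) and -1.25 for Atf4 (others -1.74 to -1.63). Its mean ratio was 0.166 for the cholesterol synthesis genes (others 0.478 to 0.560), -0.948 for the unfolded protein response genes (others -1.16 to -1.11) and -2.23 for the reactive astrocyte genes (others -2.80 to -2.65). Control replicate 5 stood apart on the same side for 2 of these lists, at 0.208 for cholesterol synthesis (others 0.552 to 0.614) and -2.07 for reactive astrocyte genes (others -2.70 to -2.57). It was also low for Grin2d at -0.251 (others 0.330 to 0.484) and for the GABA-A receptor subunits at 4.05 (others 4.36 to 4.49).

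NVP replicate 3 read -2.09 for Rrm2, above the other NVP arrays (-2.42 to -2.35), and 3.86 for Thsd4, below them (4.17 to 4.25). NVP replicate 2 read 0.0434 for Cubn (others 0.256 to 0.329), and NVP replicate 1 read 1.38 for Rgs2 (others 0.972 to 1.09). Control replicate 4 read -0.0653 for Pmaip1 (others 0.189 to 0.270) and -0.316 for the mean of the FOXO, apoptosis and thioredoxin genes (others -0.231 to -0.196).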

How the results depend on the processing

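No gene passed for NVP against control, or against Ro25, under any alternative run. Against control, however, the lowest limma adjusted p came close to the threshold with array weights, at 0.0508. It was 0.101 in the deposited value table and 0.484 in the main fit. Against control, between 270 genes (median centring) and 2174 (array weights) had an unadjusted p under 0.05. The Ptgs2 difference from control stayed below 0 in all, from -0.47 to -0.31 with 1 array left out. Against AP5, 121 genes passed with median centring, 634 on the arrays of 1 scan day, 108 with slide as a fixed block and 1855 with array weights. With 1 NVP or control array left out, 748 to 1340 passed. No single AP5 or Ro25 array was left out in turn, here or in the ranges below. Slide as a fixed block compares NVP with control only through Ro25 arrays and control replicate 3, in part by way of AP5 replicates 1 and 5. It turned the difference from control for Cd68 (0.12), Celf4 (-0.037), Dusp1 (0.013), Fos (0.11), Gabra5 (-0.027), Gfap (0.74), Grin1 (-0.55), Grin2a (-0.40), Grin2b (-0.84), Grin2d (-0.38), Mki67 (-0.60), Nos1 (-0.31), Ptgs1 (0.15) and Syt1 (-0.22), and NVP minus AP5 for Fosb (-0.14) and Spry2 (-0.24). It moved the medians of immediate early (-0.32), ERK feedback (-0.15), NMDA receptor (-0.40), other glutamate receptor (-0.31), GABA-A (-0.19), scaffold (-0.31), channel (-0.49), cholesterol (-0.29), FOXO (-0.10), oxidative phosphorylation (0.13), circadian (0.090), pan-neuronal (-0.25), excitatory (-0.24), inhibitory (-0.18), progenitor (-0.13) and endothelial (-0.32) lists. By less, it turned those of reactive astrocyte (0.13), interferon (0.051), astrocyte (0.087), oligodendrocyte (-0.049) and housekeeping (0.018) genes, and took those of prostaglandin and cell cycle genes to -0.033 and -0.021. Values near 0 turned elsewhere: Grin2c with median centring (-0.016), the scanner's processed signals (-0.11), the deposited value table (-0.0098) and array weights (-0.11), Mki67 with median centring (-0.013), and Spry2 against AP5 with median centring (-0.10), on 1 scan day (-0.013) and with array weights (-0.076). Egr4 against AP5 was -0.24 in the scanner's processed signals, and the housekeeping median was 0.029 in the value table. With 1 array left out, Gfap ran from -0.56 to 0.13, Grin2c from -0.16 to 0.20, Ifi203 from -0.052 to 0.012, Mki67 from -0.095 to 0.12, Fos from -0.63 (without NVP replicate 5) to -0.16 (without control replicate 5), Grin2b from 0.053 (without NVP replicate 4) to 0.34, the ERK feedback median from -0.077 (without control replicate 2) to -0.0072, and against AP5 Fosb from -0.027 to 0.13 and Spry2 from -0.068 to 0.13. Other list medians reached or crossed 0 in this way: interferon (-0.090 to 0.022), astrocyte (-0.058 to 0.055), cholesterol (-0.14 to 0.00099), oligodendrocyte (-0.019 to 0.11), pan-neuronal (0.0012 to 0.10), neuropeptide (-0.0049 to 0.086), FOXO (-0.041 to 0.00011), oxidative phosphorylation (-0.023 to 0.028), circadian (-0.029 to 0.0018) and ependymal (-0.057 to 0.019). Control replicate 5 set the interferon and pan-neuronal extremes near or past 0, and NVP replicate 5 that of cholesterol. The causes were not tested.

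Title numbers did not pair the arrays: deviations of same-numbered NVP and control arrays correlated at -0.35, 0.18, -0.09, 0.04 and 0.71, and only number 5 matched its own number best. With the number as a block, 0 genes passed against control (lowest adjusted p 0.469), Ptgs2 was -0.40 and 1179 passed against AP5. Scaling between arrays (Aquantile) leaves ratios as they are, so its values are identical by construction. A fit of the 10 arrays alone gives no value against AP5. The random slide block over 10 arrays was chosen after seeing the data. Where a probe was near background in AP5 (Npas4), the difference is a bound.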

Other observations

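Circadian clock genes were the list, beside the apoptosis genes, with the most members lower in NVP than in AP5. Of 19 tested, 5 were lower past the threshold and 0 higher, where 2.69% and 3.09% of all genes were, and 1 of the 19 passed with slide as a fixed block. Tef, a PAR bZIP output gene of the clock, ran from 0.16 to 0.37 in NVP and from 0.92 to 1.33 in AP5, a difference of -0.79 (limma adjusted p 3.0e-05), but -0.19 in the deposited value table (adjusted p 0.273). Ciart, a clock repressor, differed by -0.51 (adjusted p 7.1e-04) and the cryptochrome Cry1 by -0.37 (adjusted p 0.0019). Cry1 gave -1.25 in the scanner's processed signals with an adjusted p of 0.0566.

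A few other genes separated NVP from AP5 as well. Kcnq3, a potassium channel subunit, was higher in NVP by 0.45 (adjusted p 0.0021) and Kcnv1, a silent potassium channel subunit, by 0.77 (adjusted p 0.0015). Atf4, the transcription factor of the integrated stress response, was higher by 0.55 (adjusted p 0.0046). Csf1r, the receptor for the growth factor that microglia need, was lower by 0.49 on the log2 scale (-0.49, adjusted p 0.0016). Of these 7 genes, Tef alone passed with slide as a fixed block, and Kcnq3 and Kcnv1 alone passed with median centring.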
